A study of Mus musculus with 13 samples.

Results

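The acute transcript response to antibody binding on podocytes was read from glomeruli of 4 male wild-type Balb/c mice collected on day 1 after intraperitoneal injection of 2 mg rabbit anti-THSD7A IgG (day 1 MN), set against 5 mice given the same amount of rabbit control IgG (control). These are 9 of the 13 libraries in the series, chosen by their labels, and the other 4 are day 5 MN mice, which entered the same model fit. Each library is bulk RNA from the glomeruli of a single mouse, collected with magnetic beads after perfusion of the kidney, and the study freed glomeruli by collagenase digestion or, for co-immunoprecipitation, mechanically. Control mice of both days form a single group and the day of each is not given, so time after injection and IgG cannot be fully told apart. The model is a passive transfer of rabbit antibody, in which the mouse does not make the antibody itself. Of 35967 symbols in the table, the 14322 that reached 1 TPM in 4 or more libraries were tested. TPM are transcript abundances per transcript length, rescaled to a fixed total within a library, so levels can be compared between genes, but the read depth behind them is unknown.

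Podocytes are the visceral epithelial cells of the glomerulus, whose interlocking foot processes and slit diaphragms form the outer part of the filtration barrier. THSD7A is a transmembrane protein of the podocyte foot process and the target of autoantibodies in a subset of patients with membranous nephropathy (MN). Cells under acute stress induce immediate-early genes such as those of the FOS, JUN, EGR and KLF families, transcription factors whose mRNAs rise quickly and decay quickly. Isolated glomeruli carry a varying number of tubule fragments, and tubular cells make very abundant transcripts of their own, such as those of solute transporters. In bulk samples, more cells of a type and more RNA per cell cannot be told apart.

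Tubular transcripts were therefore measured in every library before any other gene. The proximal tubule, which reabsorbs most of the filtrate, was followed by 34 marker genes. Their summed TPM was 6313, 5567, 8209, 8563 and 16829 in control replicates 1 to 5, and 14636, 14140, 9122 and 13587 in day 1 MN replicates 1 to 4. Control replicate 5 thus had more proximal tubule transcript than any day 1 MN library, whereas the other 4 control libraries had less than all of them. The transporter gene *Slc34a1*, which carries phosphate in this segment, had TPM of 140, 115, 189, 210 and 388 in control and 370, 316, 221 and 366 in day 1 MN libraries. Day 5 MN libraries, at 6775 to 7893 summed TPM, lay within the range of the control libraries.

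The later tubular segments behaved differently in control replicate 5. Markers of the loop of Henle, distal tubule and collecting duct, 27 genes in the table, summed to 664, 408, 626, 861 and 811 TPM in control replicates 1 to 5 and to 1077, 970, 829 and 1470 in day 1 MN replicates 1 to 4. The groups overlapped only through day 1 MN replicate 3, which lay below control replicate 4. *Slc12a3*, the thiazide-sensitive sodium chloride cotransporter of the distal convoluted tubule, had TPM of 36.6, 25.5, 41.6, 42.3 and 66.3 in control libraries and of 120, 86.7, 77.1 and 148 in day 1 MN libraries, without overlap. Per 100 TPM of *Slc34a1*, the libraries held 17.1 to 26.2 TPM of *Slc12a3* in control mice and 27.4 to 40.4 TPM at day 1. These ranges did not overlap between the groups. At day 5 the ratio lay between 15.5 and 46.2 and covered both. Over the whole lists the distal sum per 100 TPM of the proximal sum was 4.82 to 10.5 in control and 6.86 to 10.8 at day 1, and the groups overlapped.

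**Figure D1:**
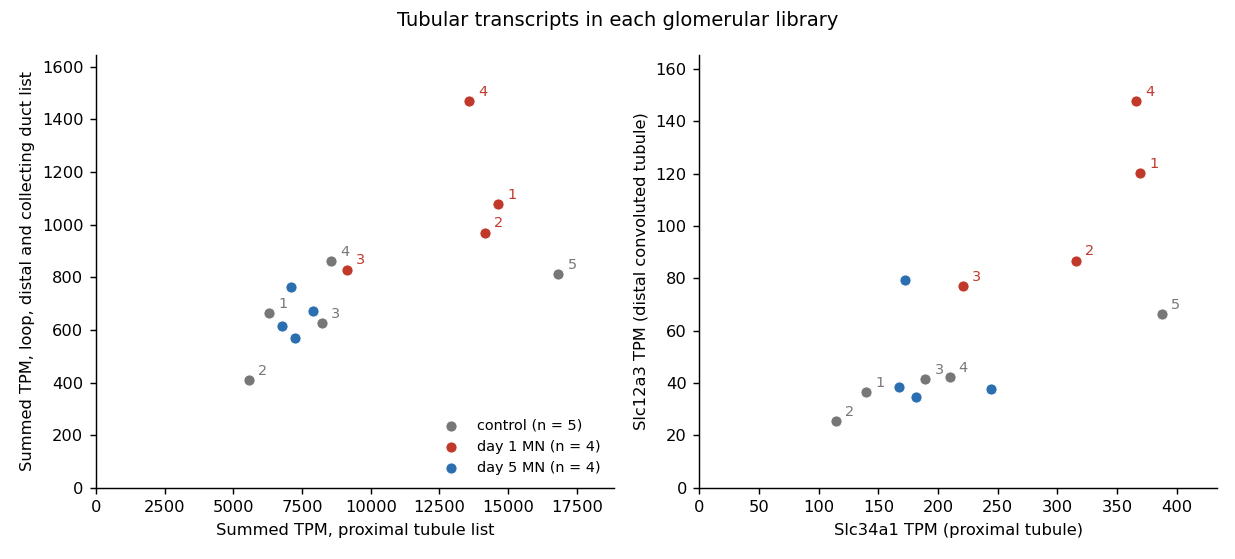
Tubular transcripts in each library, as the summed TPM of the proximal tubule list (x axis) against that of the loop, distal tubule and collecting duct list (y axis) on the left, and as the TPM of *Slc34a1* against *Slc12a3* on the right. Points are libraries, numbered for control (grey) and day 1 MN (red) replicates; control replicate 5 has the highest proximal sum (16829) but a distal sum of 811, and all day 1 MN points have more *Slc12a3* than any control point.

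The glomerular identity of the libraries was checked with marker lists. The 29 podocyte markers in the table summed to 13203 to 17472 TPM in control and 14247 to 17410 in day 1 MN libraries. Glomerular endothelial markers summed to 12578 to 16022 and 11602 to 16667 TPM. Leukocyte markers were low, with 138 to 213 TPM in control and 180 to 227 in day 1 MN libraries over 26 genes. Of these, 8 stayed under 1 TPM in all 9 libraries. They include *Adgre1*, *Ly6g*, *Cd3e* and *Ms4a1*, which mark macrophages, neutrophils, T cells and B cells. Others reached 1 TPM in 4 or more libraries, such as *Ptprc*, the macrophage genes *Csf1r*, *Cd68* and *Mrc1*, and *S100a8* and *S100a9*. Erythrocyte markers ran from 207 to 472 TPM in control and from 92.2 to 282 in day 1 MN libraries. The 5 tested had a median log2 fold change of -0.78 with 0 called (0.0908% of all tested genes were called). The listed TPM of a library summed to between 991049 and 996064 in control and between 992094 and 993022 in day 1 MN mice.

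At day 1, 13 genes were called (limma, Benjamini-Hochberg adjusted p under 0.05 together with a log2 fold change beyond 0.5 in either direction), which is 0.0908% of the genes tested. Of these, 8 rose (0.0559% of genes tested) and 5 fell (0.0349%) in day 1 MN mice. A further 6 genes had an adjusted p under 0.05 with a smaller fold change. Without adjustment, 1036 genes were higher at a p under 0.05 (7.23%) and 763 were lower (5.33%). For 217 genes every day 1 MN library lay above every control library on the scaled values (1.52%), and for 284 genes every one lay below (1.98%), whereas the deposited TPM gave 130 and 475 genes. The split between directions thus depended on the scaling between libraries, while the median log2 fold change of all tested genes was -0.0029.

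The called genes include 3 transcription factors of the early stress response. *Maff*, a small MAF protein that pairs with CNC and other basic leucine zipper factors, lies on chromosome 15 of GRCm39 (79230821 to 79243276). It had TPM of 6.17, 5.68, 6.07, 7.86 and 5.59 in control and 15.9, 18.9, 18.3 and 14.2 in day 1 MN libraries. The lowest day 1 value, 14.2, lay well above the highest control value, and the log2 fold change was 1.40 (standard error, SE, 0.17, adjusted p = 0.00832, limma). *Maff* was called in all 13 fits that each left out 1 library. It was also called when only control and day 1 MN libraries were fitted (adjusted p = 0.00698, limma), which ended the calls of the other 12 genes. The 1 other gene called in that fit, *Gm45288* (log2 fold change 3.004, adjusted p = 0.0171, limma), is named only after its values were seen.

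*Fosb*, a FOS family partner of JUN proteins in AP-1, lies on chromosome 7 (19036621 to 19043976) and was a low transcript, with TPM of 0.621, 1.06, 0.499, 0.755 and 0.532 in control and 2.49, 1.87, 2.06 and 3.76 in day 1 MN libraries. Its log2 fold change was 1.37 (SE 0.22, adjusted p = 0.0395, limma). *Fosb* reached 1 TPM in 1 control library and in all 4 day 1 MN libraries, so it passed the filter on low values mainly through the MN mice. *Egr1*, a zinc finger factor induced by growth and stress signals, had TPM of 12.9, 9.72, 13.2, 10.2 and 9.38 in control and 20.1, 17.4, 19.8 and 27.6 in day 1 MN libraries, again without overlap, and its log2 fold change was 0.94 (SE 0.14, adjusted p = 0.0271, limma). In the fits that each left out 1 library, *Egr1* was called in 8 of 13 and *Fosb* in 2, the adjusted p of *Fosb* reaching 0.136. *Klf4*, a zinc finger factor with a known role in podocyte differentiation, had an adjusted p of 0.0271 (limma) just under the fold change threshold, at 0.498, with TPM of 106 to 122 in control and 148 to 185 in day 1 MN libraries.

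Promoter windows of called genes were searched for 4 motifs bound by factors of the same response. Windows on the chromosome of *Egr1* were left out, so *Egr1* was not searched. The shares over all windows were counted without this exclusion. The motifs were TGACGTCA, bound by CREB and ATF proteins, TGACTCA, bound by AP-1, the NF-kB motif and the CArG box of serum response factor, searched on both strands, and neither of the motifs spelled out contains the other. Windows of 300 bases, 250 before to 50 after an annotated start, come from RefSeq on build GRCm38.p6, and 9 of the 13 called genes had 16 windows between them. In all 32851 windows, 1.79% held TGACGTCA, 5.2% TGACTCA, 8.46% the NF-kB motif and 1.63% the CArG box. Matches were found in 4 of the 16 windows, from *Maff* (TGACGTCA in a window and the NF-kB motif in another), *Fosb* and *Vash1* (NF-kB motif in each). The windows of *Maff* (chr15:79347270-79347569, + strand), *Fosb* (chr7:19309996-19310295, - strand) and *Tnfaip3* (chr10:19015361-19015660, - strand), an inhibitor of NF-kB signaling, are given 5′ to 3′ with the matches in capitals.
Maff: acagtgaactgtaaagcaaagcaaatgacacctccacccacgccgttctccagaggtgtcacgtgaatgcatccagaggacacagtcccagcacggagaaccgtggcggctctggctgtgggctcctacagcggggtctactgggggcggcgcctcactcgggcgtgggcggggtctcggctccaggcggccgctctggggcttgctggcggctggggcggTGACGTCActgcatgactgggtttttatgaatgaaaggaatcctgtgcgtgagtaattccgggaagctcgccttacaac
Fosb: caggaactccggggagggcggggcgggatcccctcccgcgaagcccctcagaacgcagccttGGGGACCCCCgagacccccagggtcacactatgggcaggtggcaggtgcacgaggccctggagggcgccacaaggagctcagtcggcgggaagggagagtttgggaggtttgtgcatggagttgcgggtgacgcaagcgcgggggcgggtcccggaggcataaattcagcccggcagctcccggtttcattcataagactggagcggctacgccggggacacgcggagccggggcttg
Tnfaip3: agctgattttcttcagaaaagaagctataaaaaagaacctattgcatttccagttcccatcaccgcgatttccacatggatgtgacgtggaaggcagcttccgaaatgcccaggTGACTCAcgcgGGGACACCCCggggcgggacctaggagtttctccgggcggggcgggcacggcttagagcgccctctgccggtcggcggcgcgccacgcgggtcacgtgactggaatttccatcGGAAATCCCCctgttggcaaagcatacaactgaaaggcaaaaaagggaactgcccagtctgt
The *Maff* match begins 29 bases before the start and the *Fosb* match 188 bases before it. *Tnfaip3* was not a called gene, and its window, chosen for its matches, holds TGACTCA 136 bases and NF-kB motifs 125 and 12 bases before the start. Its second window and the windows of *Klf4*, *Junb* and *Nr4a2* held no match. Among the other genes with an adjusted p under 0.05 in limma that were not called, *Vim* held 3 NF-kB matches and *Niban2* held 1. The windows of *Rab13*, *Gm2427* and *Rmnd5a* held no match. A match is a description of the letters, and binding was not measured in these samples.

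The other called genes that rose encode surface or secreted proteins, a calcium buffer and a zinc finger protein. *Tnfrsf12a*, the receptor of the cytokine TWEAK and induced in injured tissue, lies on chromosome 17 (23894416 to 23896468). It had TPM of 38.7, 27.8, 40.9, 39.5 and 42.5 in control and 86.4, 109, 67.3 and 97.0 in day 1 MN libraries. The lowest day 1 value was above the highest control value, and the log2 fold change was 1.27 (SE 0.21, adjusted p = 0.0395, limma). It was called in 5 of the 13 fits that left out 1 library. *Lrtm2*, a leucine-rich repeat membrane protein on chromosome 6 (119292094 to 119307778), had TPM of 2.63, 2.33, 2.13, 3.33 and 3.14 in control and 6.26, 8.24, 6.50 and 5.58 in day 1 MN libraries. Its log2 fold change of 1.19 (SE 0.15, adjusted p = 0.00832, limma) was called in all 13 fits that each left out 1 library. *Cdsn*, corneodesmosin, an adhesion protein best known from the skin, lies on chromosome 17 (35863025 to 35868077) and was nearly absent in control mice, at 0.144 to 0.191 TPM. At day 1 its TPM was 1.20, 1.37, 1.26 and 0.752, and its log2 difference was 1.32 (SE 0.20, adjusted p = 0.0271, limma). This value depends on the amount added before the logarithm, from 0.89 with 1 to 2.27 with 0.1. *Cdsn* reached 1 TPM in 0 control, 3 day 1 MN and 4 day 5 MN libraries, so it passed the filter on low values only with day 5 libraries. It was called in 6 of the 13 fits.

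*Gm14288*, a predicted zinc finger gene on chromosome 2 (175580129 to 175592886), was estimated at no more than 0.00344 TPM in any control library and at 3.44, 0.739, 3.31 and 2.51 TPM at day 1. Its fitted log2 fold change of 2.46 (SE 0.41, adjusted p = 0.0409, limma) depends on the value added before the logarithm, from 1.73 with 1 to 4.51 with 0.1. It lies among similar zinc finger genes, so the assignment of reads to it is uncertain. With 0 control, 3 day 1 MN and 3 day 5 MN libraries at 1 TPM or more, it too passed the filter only with day 5 libraries. It was called in 3 of the 13 fits. *Pvalb*, parvalbumin, a calcium-binding protein that marks the early distal convoluted tubule, lies on chromosome 15 (78075314 to 78091149). It had TPM of 12.6, 9.13, 14.8, 18.6 and 18.4 in control and 40.7, 32.7, 28.9 and 54.2 in day 1 MN libraries (log2 fold change 1.43, SE 0.24, adjusted p = 0.0395, limma). It was the only member of either tubular list among the called genes, and it was called in 3 of the 13 fits.

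The 5 genes that fell are expressed at moderate to high levels in glomeruli. *Dynll2*, a dynein light chain, on chromosome 11 (87870351 to 87889154), had TPM of 519, 523, 562, 512 and 523 in control and 325, 349, 410 and 364 in day 1 MN libraries. Its decrease was small but well outside the spread of the control mice (log2 fold change -0.50, SE 0.06, adjusted p = 0.00832, limma). *Cdc42bpg*, a kinase that acts downstream of the GTPase CDC42 on the actin cytoskeleton, on chromosome 19 (6356486 to 6375682), fell from 84.7 to 92.5 TPM in control to 57.3, 52.9, 68.2 and 62.4 TPM at day 1 (-0.52, SE 0.07, adjusted p = 0.00832, limma). *Vash1*, vasohibin 1, a tubulin carboxypeptidase that also restrains vessel growth, on chromosome 12 (86725460 to 86738865), fell from 42.1 to 47.8 TPM to 27.2, 29.7, 34.5 and 28.8 TPM (-0.54, SE 0.07, adjusted p = 0.0111, limma). Day 1 MN replicate 3 had the smallest decrease in these 3 genes, which were called in 9, 10 and 12 of the 13 fits.

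*Pals1*, a scaffold of the Crumbs polarity complex on chromosome 12 (78795006 to 78888211), had TPM of 120, 104.2, 127, 109 and 126 in control and 66.2, 79.6, 83.7 and 87.9 in day 1 MN libraries (-0.52, SE 0.09, adjusted p = 0.0452, limma). It was called in none of the 13 fits that left out 1 library. *Lypd1*, a GPI-anchored protein of the Ly6 family on chromosome 1 (125795357 to 125841150), had the largest decrease of the called genes, from 81.0, 99.7, 74.9, 73.6 and 111 TPM to 21.0, 30.7, 50.8 and 34.9 TPM. Its log2 fold change was -1.35 (SE 0.23, adjusted p = 0.0471, limma), and it was called in 3 of the 13 fits. The genes with an adjusted p under 0.05 below the fold change threshold were *Niban2* (-0.39), *Rab13* (-0.39), *Gm2427* (-0.43) and *Rmnd5a* (-0.27), which fell, and *Vim* (0.50) and *Klf4*, which rose. *Vim* encodes vimentin, the intermediate filament of podocytes and mesenchymal cells, and had TPM of 577 to 739 in control and 810 to 992 in day 1 MN libraries.

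**Figure D2:**
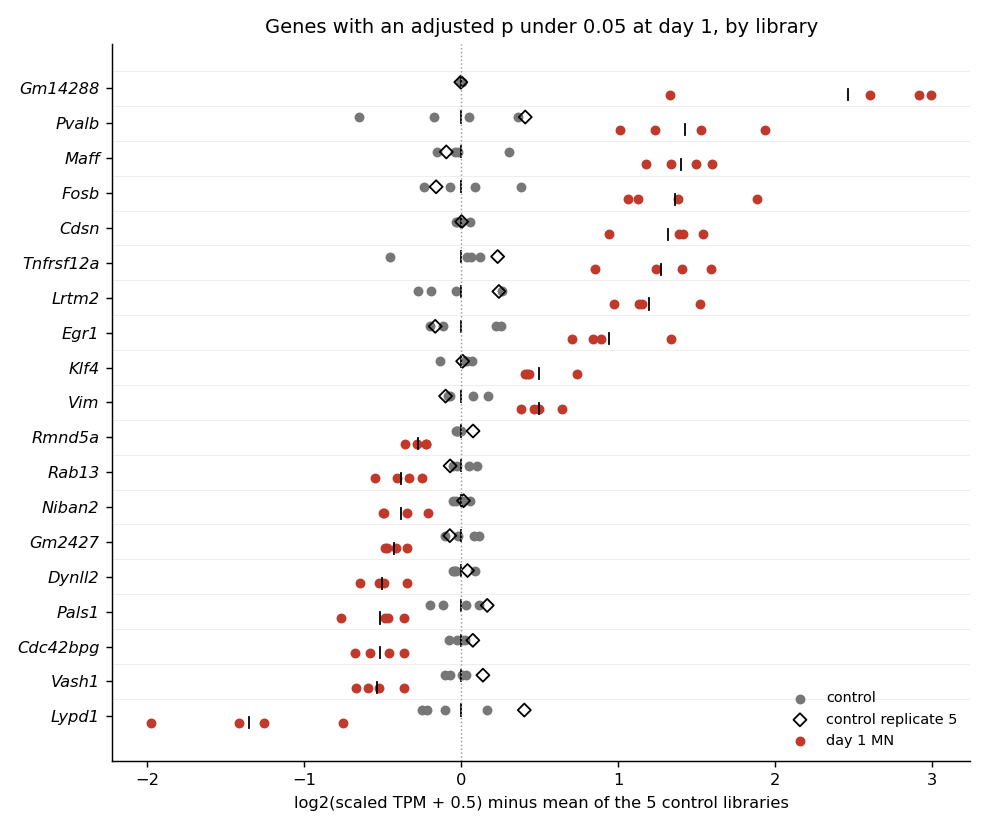
Genes with an adjusted p under 0.05 at day 1, with each library's log2(scaled TPM + 0.5) minus the mean of the 5 control libraries on the x axis. Grey points are control libraries, the open diamond control replicate 5, red points day 1 MN libraries and black ticks group means. For each of the 19 genes no red point overlaps with a control point, and control replicate 5 lies among or near the other control libraries. The genes were chosen by their adjusted p on these libraries, so both features are in part fixed by the choice.

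How far these genes stood apart from tubular carry-over was examined first in control replicate 5, which had the highest proximal tubule level without having received anti-THSD7A IgG. In this library the 34 proximal tubule genes were higher than the mean of the other 4 control libraries by a median of 1.38 on the log2 scale. *Cdsn* and *Gm14288*, under 1 TPM in all 5 control libraries, could hardly differ there and are left aside. The other genes called higher at day 1 ranged from -0.21 for *Egr1* to 0.51 for *Pvalb*. *Fosb*, which reached 1 TPM in only 1 control library and so was near its floor, lay at -0.20. *Maff* lay at -0.12, *Tnfrsf12a* at 0.29 and *Lrtm2* at 0.30 in control replicate 5. The 5 genes called lower were all slightly higher in it, by 0.05 for *Dynll2* to 0.50 for *Lypd1*. A gene called at day 1 had to be at control level in this library to pass, so these values are in part fixed by the call.

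A tubular score, the mean of the centred log2 values over 56 tested tubular genes, was then fitted as a covariate beside the groups. The score ran from -0.85 to 0.56 in control and from 0.13 to 0.81 in day 1 MN libraries, so it was partly tied to the groups, and it raised the median standard error by a factor of 1.34. With the covariate 0 genes were called (limma, lowest adjusted p = 0.0842), although 1164 genes had an unadjusted p under 0.05. Among the log2 fold changes of the called genes, *Maff* went from 1.40 to 1.44, *Fosb* from 1.37 to 1.38 and *Egr1* from 0.94 to 0.92. *Cdsn* (1.44) and *Gm14288* (2.45) were near their floor in every control library, so their values with the covariate say nothing about carry-over. *Fosb* reached 1 TPM in only 1 control library, so its value is limited in the same way. *Dynll2* was at -0.49, *Cdc42bpg* at -0.53, *Vash1* at -0.57, *Pals1* at -0.62 and *Lypd1* at -1.31. *Lrtm2* decreased to 1.05, *Tnfrsf12a* to 0.99 and *Pvalb* to 0.84, the largest relative loss, to 0.588 of its value. Among called genes, *Pvalb* alone was associated with the score itself (coefficient 0.80, adjusted p = 0.0472, limma).

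The proximal tubule genes lost their difference in the same fit. Their median log2 fold change was 0.76 at day 1, with all 34 higher and 0 called (0.0908% of all tested genes were called). It became -0.14 with the covariate, where 7 of 34 were higher. *Slc34a1* went from 0.76 (adjusted p = 0.331, limma) to -0.17, and *Lrp2*, which encodes the endocytic receptor megalin, from 0.74 to -0.12. The loop, distal tubule and collecting duct genes went from a median of 0.73, with all 22 tested genes higher, to 0.10. With the covariate 17 of these 22 genes were higher. Within this list *Slc12a3* kept 0.66 of its 1.40 and *Calb1*, which encodes the calcium buffer calbindin of the distal convoluted and connecting tubule, kept 1.17 of its 1.49. *Slc26a4* kept 0.60 of its 0.94 and *Hsd11b2* 0.55 of its 0.83, whereas *Wnk4* went from 0.57 to -0.21. *Umod*, uromodulin of the thick ascending limb, went from 0.61 to 0.08, and *Aqp2*, the water channel of the collecting duct, from 0.56 to -0.06. The list's genes entered the score, so their values with the covariate describe the fit.

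**Figure D3:**
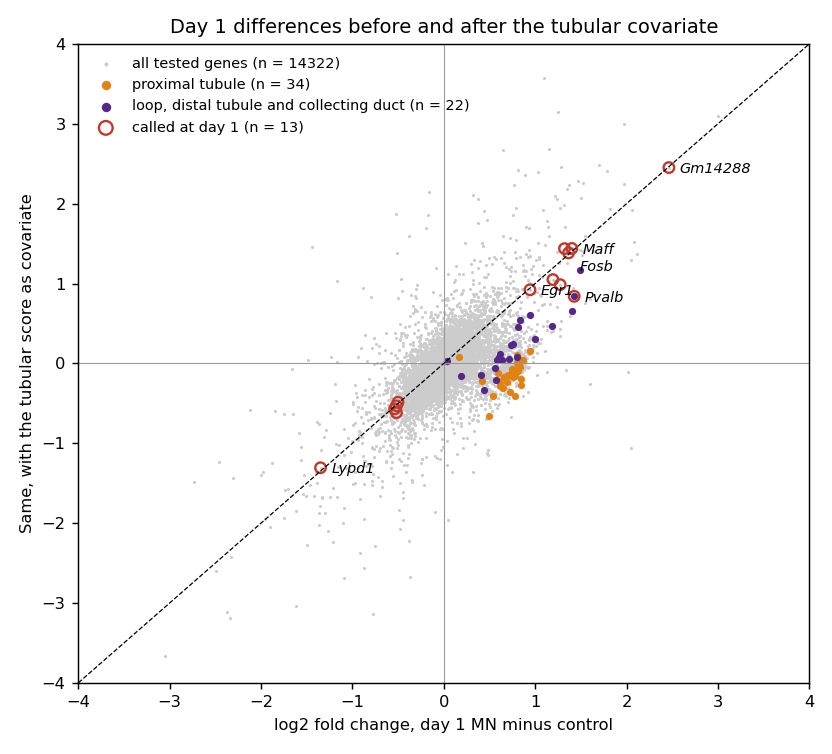
Log2 fold change of day 1 MN minus control (x axis) against the same with the tubular score as a covariate (y axis), for 14322 genes. Orange and violet points are the tubular lists, red circles the 13 called genes and the dashed line marks equal values. Most called genes lie near the line, whereas *Pvalb* (1.43 to 0.84) and *Tnfrsf12a* (1.27 to 0.99) were reduced. The 34 proximal tubule genes fall to a median of -0.14.

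Outside the tubular lists, 465 of 14266 genes were associated with the score across all libraries (3.26%, limma, adjusted p under 0.05), 410 with higher and 55 with lower values at a higher score. Control replicate 5 largely set how many genes were called at day 1. Without it the count rose from 13 to 218 (1.52% of genes tested), of which 210 were higher and 160 were associated with the tubular score, and 10 of the 13 remained. The 218 include 29 members of the tubular lists, whose genes make up the score. Leaving out the other libraries gave 7, 5, 5 and 6 calls for control replicates 1 to 4, 3, 7, 18 and 8 for day 1 MN replicates 1 to 4, and 8, 5, 9 and 11 for day 5 MN replicates 1 to 4. Of the 202 higher genes called only without control replicate 5, 201 were higher in it than the mean of the other control libraries. Their association with the score, fitted with that library included, is therefore in part fixed by this selection. The same holds for their value with the covariate. Their median log2 fold change was 1.00 without control replicate 5, 0.74 with it and 0.00083 with the tubular covariate. Those with the highest fold changes were *Gm17030* (1.65), *Slc12a3* (1.59), *Calb1* (1.52), *Tmem52b* (1.41) and *1700016C15Rik* (1.41), and the latter had 9.53 TPM in control replicate 5 against 2.88 to 5.61 at day 1. Genes called lower only then were few, 6 in all, led by the pseudogene *Gm49910* (-3.42), *Gm11032* (-2.89), the immunoglobulin gene *Igkv6-23* (-2.38), *Gm47042* (-2.06) and *Letm2* (-0.72), and the first of these was listed at 0 in control replicate 5 and in all 4 day 1 libraries.

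**Figure D4:**
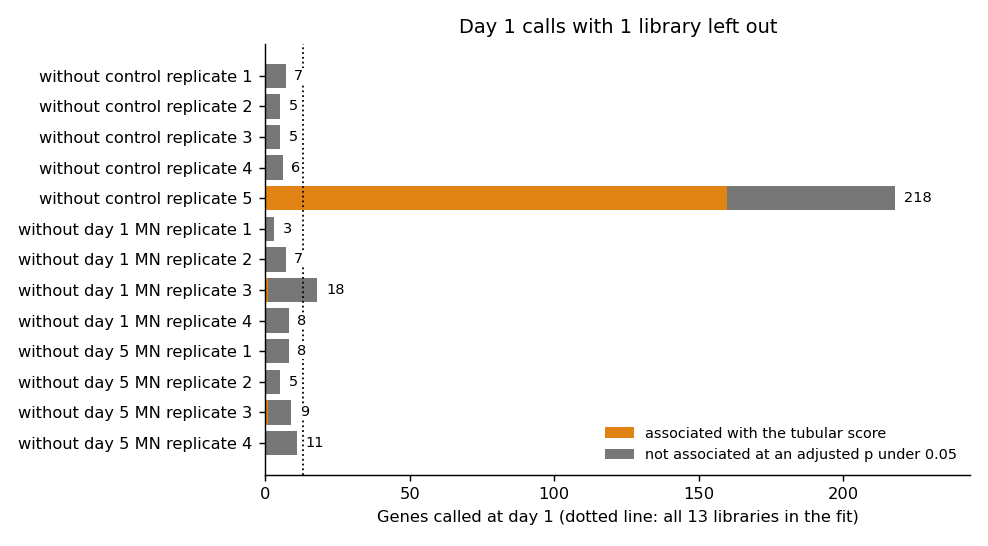
Number of genes called at day 1 when the library named on the y axis was left out of the fit. Orange bars are genes associated with the tubular score and grey bars the other genes, and the dotted line marks the 13 calls with all libraries. Without control replicate 5 the count reaches 218, 160 of them associated with the score, which was fitted with that library included. For the other libraries it lies between 3 and 18.

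Immediate-early genes were then followed as families, in lists drawn up with the called genes known. Of 14 AP-1 and small MAF genes, 8 were higher and 6 lower, with a median log2 fold change of 0.11. Called higher were 2, *Maff* and *Fosb*, where 0.0559% of all tested genes were. An unadjusted p under 0.05 was reached by 4 higher members and 1 lower member, against 7.23% and 5.33% of all tested genes, and the list was written with its called members known. The lower member was *Mafg* (log2 fold change -0.24, adjusted p = 0.370, limma). *Fos* was at 0.34 (adjusted p = 0.563, limma), *Jun* at -0.12 and *Atf3* at -0.0022, all with overlapping groups. *Junb*, an AP-1 partner of FOS proteins, had TPM of 49.6 to 62.6 in control and 57.3 to 86.6 in day 1 MN libraries, with an overlap through day 1 MN replicate 3 (log2 fold change 0.45, adjusted p = 0.178, limma). Of 17 EGR, NR4A, IER and KLF genes 14 were tested, of which 11 were higher with a median of 0.24, 7 of them at an unadjusted p under 0.05 (7.23% of all genes tested), and *Egr1* was called (0.0559% of all genes tested were called higher). *Nr4a2*, an orphan nuclear receptor, had TPM of 4.73 to 12.8 in control and 8.04, 21.4, 18.6 and 26.5 at day 1 (1.26, adjusted p = 0.268, limma), so that its groups overlapped through day 1 MN replicate 1. *Ier2* (0.35, adjusted p = 0.178) and *Egr3* (0.80, adjusted p = 0.33) had separate groups without passing the test in limma. Of 34 other immediate-early and feedback genes 31 were tested, with a median of 0.05. With the tubular covariate the medians of these 3 lists were 0.24, 0.28 and 0.13.

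Inflammatory families held 1 called gene in all, where 0.0908% of all tested genes were called. At this share, 0 calls in lists of this size say nothing about the families. Of 16 genes of NF-kB and its inhibitors, 12 were higher with a median of 0.06, and *Tnfaip3*, with 4.97 to 8.88 TPM in control and 16.2, 9.68, 11.1 and 11.7 at day 1, was the highest (0.79, adjusted p = 0.109, limma). The 16 tested of 17 TNF receptor family genes had a median of 0.0041, with *Tnfrsf12a* the called gene. Of 28 chemokine and cytokine genes, 14 passed the filter, with a median of 0.12 and 0 called. The 21 tested of 31 complement genes had a median of 0.10 and 0 called, the 6 tested of 7 Fc receptor genes 0.12 and 0, and the 25 tested of 26 interferon response genes -0.04 and 0. Of 26 leukocyte markers, 15 were tested, 9 higher and 6 lower, and their median was 0.09. *S100a9*, an alarmin of neutrophils and monocytes, had TPM of 8.94, 10.7, 2.86, 5.27 and 2.73 in control and 14.4, 16.2, 9.21 and 9.03 at day 1, with overlapping groups (1.13, adjusted p = 0.324, limma). *S100a8* was at 0.09 (adjusted p = 0.961, limma). *Aif1*, the other leukocyte marker with an unadjusted p under 0.05, was at -0.87 (adjusted p = 0.347, limma).

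Podocyte transcripts were mostly near control level. Of 30 podocyte genes 29 were tested, of which 19 were lower. The median log2 fold change was -0.09 and 0 were called, where 0.0908% of all tested genes were. An unadjusted p under 0.05 was reached by 5 lower genes and 1 higher gene, against 5.33% and 7.23% of all tested genes. *Thsd7a*, the transcript of the antibody target, had TPM of 185, 116, 190, 174 and 206 in control and 106, 112, 126 and 154 in day 1 MN libraries, with overlap through control replicate 2 (-0.42, adjusted p = 0.331, limma). With the tubular covariate its log2 fold change was -0.77 (adjusted p = 0.200, limma). *Cd2ap*, an adaptor of the slit diaphragm, had 140 to 161 TPM in control and 116 to 132 at day 1, without overlap (-0.27, adjusted p = 0.146, limma). *Synpo*, the actin-associated protein synaptopodin, *Wt1*, a transcription factor of podocytes, and the phospholipase gene *Plce1* had log2 fold changes of -0.25, -0.31 and -0.40, with adjusted p of 0.241, 0.387 and 0.249 (limma). *Nphs1*, nephrin, was at -0.13 (adjusted p = 0.694, limma). With the tubular covariate the podocyte median was -0.32, with 3 of 29 genes higher. *Magi1*, a junctional scaffold, had 4.75 to 5.55 TPM in control and 6.39, 10.1, 8.29 and 6.55 at day 1 (0.59, adjusted p = 0.178, limma). A list with 21 tested polarity and podocyte signaling genes was written with the called genes *Dynll2*, *Cdc42bpg*, *Vash1* and *Pals1* in it, and 17 of its members were lower with a median of -0.07.

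Lists for other cell types of the glomerulus and for cellular processes are given for the members that passed the filter. The 20 endothelial genes had a median of 0.03, with *Egfl7*, a secreted endothelial factor, the highest (0.41, adjusted p = 0.178, limma), and the 16 mesangial and smooth muscle genes a median of -0.0041. The 9 parietal epithelial genes, several of which tubular cells share, had a median of 0.44, and 0.20 with the tubular covariate, led by the keratin genes *Krt18* (1.01) and *Krt8* (0.94). Their summed TPM lay in the other direction, at 880 to 995 in control and 707 to 922 at day 1, with overlap. All 13 genes of the mitochondrial genome were higher with a median of 0.26, and with the covariate the median was -0.03. Of 19 heat shock and chaperone genes, 16 were lower with a median of -0.27. *Hspa1a*, the inducible HSP70 gene, varied within the groups, with TPM of 17.5, 41.7, 26.9, 24.8 and 90.4 in control and 10.3, 10.4, 68.9 and 5.86 in day 1 MN libraries. The 36 cell cycle genes had a median of -0.01, the 21 genes of the unfolded protein and integrated stress response -0.12, the 24 SRF and YAP targets 0.11 and the 24 matrix proteases and inhibitors 0.03, all with 0 called. Of all tested genes 0.0908% were called. The 23 slit diaphragm and MN antigen genes had a median of -0.07 and the 14 iron and NRF2 genes 0.17, also with 0 called. Among 25 clock and glucocorticoid genes the median was -0.22, while *Mt1* and *Mt2*, metal-binding metallothioneins, had log2 fold changes of 0.34 and 0.58 (adjusted p = 0.102 and 0.178, limma). *Mt1* had 177 to 198 TPM in control and 221 to 249 at day 1.

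**Figure D5:**
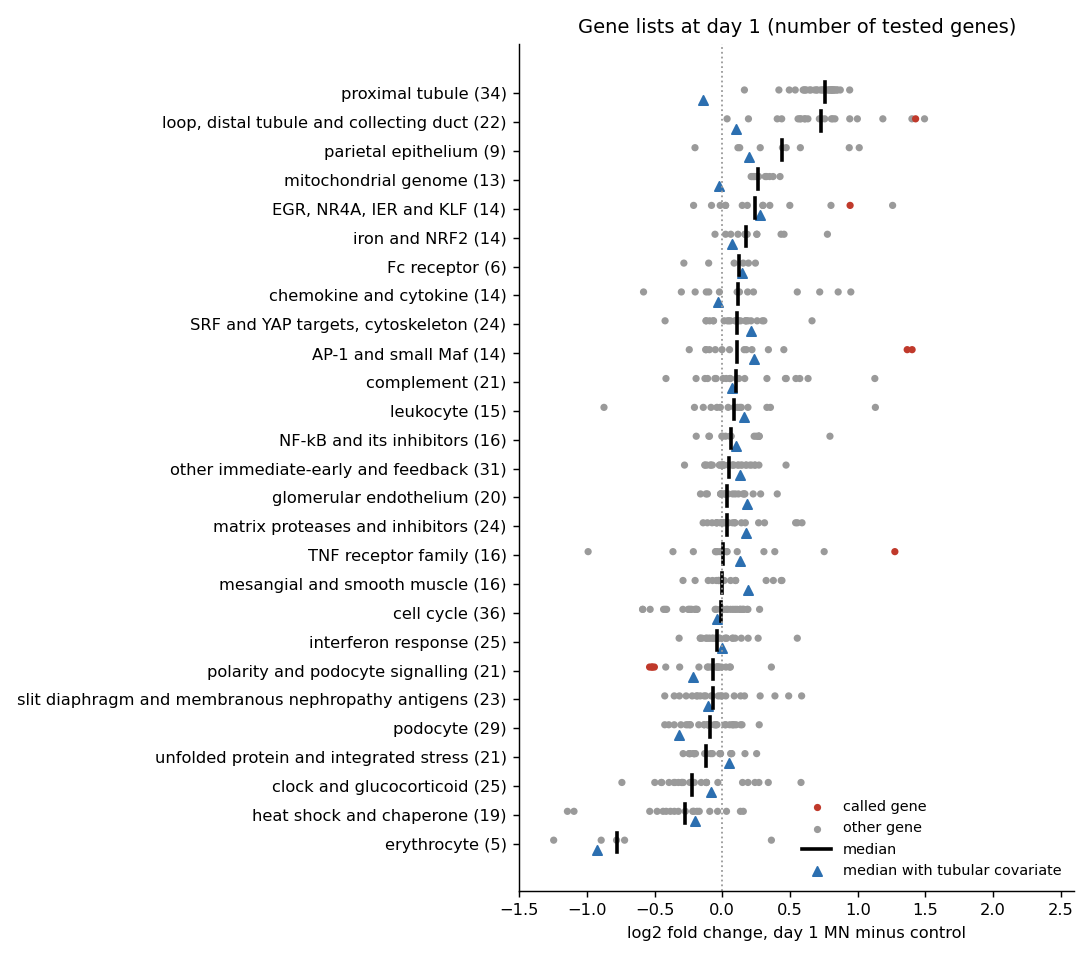
Log2 fold change of day 1 MN minus control (x axis) for the tested members of each gene list, with the number tested in parentheses. Red points are called genes, grey points other genes, black ticks medians and blue triangles medians with the tubular score as covariate; the dotted line is the median of all tested genes, the tubular lists having the highest medians, 0.76 and 0.73.

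Genes that were not called but had separate groups were ordered by p. In the upward direction the first 10 were *Scnn1a*, *Aqp1*, *Ddr1*, *Calb1*, *Adamts9*, *Smim8*, *P2ry2*, *Irx3*, *Mt1* and *Tnfaip3*. *Scnn1a*, a subunit of the epithelial sodium channel of the distal nephron, had 3.28 to 4.66 TPM in control and 5.48 to 9.89 at day 1 (0.91, adjusted p = 0.0846, limma), and 0.60 with the tubular covariate. *Adamts9*, a secreted metalloprotease, had 6.57 to 8.71 and 9.81 to 12.5 TPM (0.55, adjusted p = 0.0982, limma), and *P2ry2*, a receptor of extracellular ATP, 8.78 to 11.4 and 12.5 to 15.97 TPM (0.50, adjusted p = 0.101, limma). In the downward direction they were *Zfp664*, *Nup153*, *Septin11*, *Inpp4a*, *Rbm12*, *Usp46*, *Lnpk*, *Eif4enif1*, *Letm2* and *Nrd1*. These decreases were small, the median over all 284 such genes being -0.23. *Nup153*, a nuclear pore protein, had 30.5 to 37.3 TPM in control and 22.7 to 28.0 at day 1 (-0.39, adjusted p = 0.0838, limma).

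Day 5 MN libraries show which day 1 differences were also present later. Both days were compared with the same control libraries, so their fold changes are not independent and are given side by side only. *Maff* had log2 fold changes of 1.40 at day 1 and 1.03 at day 5, *Egr1* 0.94 and 0.65, *Fosb* 1.37 and 0.51, and *Tnfrsf12a* 1.27 and 1.07. The direct contrast of day 5 with day 1 takes its difference in means without control libraries, but its error was estimated from all 13 libraries. In this contrast 341 genes had an adjusted p under 0.05 (2.38%, limma). Of the 13 genes called at day 1, 5 did, but these genes were chosen on day 1 libraries that enter the contrast. *Lrtm2* rose further by 0.79 to 10.9 to 13.2 TPM (adjusted p = 0.0184) and *Cdsn* by 0.96 to 2.33 to 3.17 TPM (adjusted p = 0.0291, limma). *Dynll2* was lower by a further -0.30 (adjusted p = 0.0286) and *Cdc42bpg* by -0.35 (adjusted p = 0.016, limma). *Pvalb* went the opposite way and was lower at day 5 than at day 1 by -1.38 (adjusted p = 0.00846, limma), at 10.7 to 18.3 TPM within the control range. For *Maff*, *Egr1*, *Fosb*, *Tnfrsf12a*, *Gm14288*, *Vash1*, *Pals1* and *Lypd1* the contrast had adjusted p between 0.0789 and 0.962 (limma). With the tubular score as a covariate 0 of the 13 genes passed in this contrast.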

How the data were processed

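Bulk RNA-Seq of isolated mouse glomeruli was analysed, 1 library per mouse. The authors trimmed the reads and quantified them with kallisto 0.46.2 on GRCm39, and the deposited values are TPM, so read depth is unknown and no counting error can be given. The submitters' processing notes also name FastQC 0.11.9 and Trimmomatic 0.39. The authors tested counts with DESeq2, whereas TPM were tested here. Groups come from the labels, which give no batch.

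Each library was scaled by a median-of-ratios factor (0.955 to 1.04, from 15772 genes), and log2 of the result plus 0.5 was used, which understates the change of low genes. All 3 groups entered 1 fit in limma 3.58.1 (R 4.3.3, eBayes with trend, Benjamini-Hochberg adjustment), with calls at an adjusted p under 0.05 and a log2 fold change beyond 0.5 in either direction. The script was tested on simulated data. Genes named are those called or with an adjusted p under 0.05, the 10 of smallest p per direction with separate groups, the 5 of largest change per direction called only without control replicate 5, and the extremes, defining markers and members with an unadjusted p under 0.05 of each list, and *Thsd7a*, of which a selection is printed. The members and lists were chosen with earlier results of these data known. Alternatives covered pseudocounts, scalings, filters, variance models, a replicate block, marker scores as covariates and left-out libraries. Gene coordinates are from GENCODE vM39 on GRCm39 and promoters from RefSeq. Plots used matplotlib 3.10.9 in Python 3.11.15.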

Additional observations from a re-analysis of the deposited data

Results flagged for a closer look

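Samples were set apart by Dixon's ratio within the control and the day 1 MN group, for the genes named with values and the marker sums. This gave 15 cases in 124 groups. The usual rate by chance, about 1 in 20, is no measure here, because genes were named on these same libraries. *Gm17030*, *1700016C15Rik*, *Igkv6-23* and *Gm47042* were named for being called only without control replicate 5, so their outlying values are in part fixed by that choice. Control replicate 5 had the highest proximal tubule sum (16829 TPM, nearest 8563), the lowest mesangial sum (3741, nearest 5022) and the lowest leukocyte sum (138, nearest 194), as well as 9.53 TPM of *1700016C15Rik* and 0.606 TPM of *Gm17030*, listed at 0 in the other controls. Control replicate 2 had the lowest podocyte sum (13203, nearest 16400), the lowest *Tnfrsf12a* (27.8 TPM) and the highest *Gm14288* (0.00344 TPM). *Dynll2* was highest in control replicate 3 (562 TPM) and *Maff* in control replicate 4 (7.86 TPM). Among day 1 MN libraries, replicate 2 had the highest *Klf4* (185 TPM), the lowest mesangial sum (4523, nearest 4865) and the only value of *Igkv6-23* above 0 (0.562 TPM). Replicate 3 had the highest *Hspa1a* (68.9 TPM, nearest 10.4) and replicate 4 the only *Gm47042* above 0 (0.661 TPM).

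Between the days, 9 named genes differed in the contrast of day 5 with day 1 MN libraries (limma, Benjamini-Hochberg adjusted over all genes). Of all tested genes, 341 did (2.38%). Many named genes were chosen on day 1 libraries that enter this contrast, so the 9 are no independent result. *Lrtm2* (log2 difference 0.79, adjusted p = 0.0184), *Cdsn* (0.96, adjusted p = 0.0291) and *Adamts9* (0.58, adjusted p = 0.016) were higher at day 5 by limma. *Dynll2* (-0.30, adjusted p = 0.0286), *Cdc42bpg* (-0.35, adjusted p = 0.016) and *Mt1* (-0.47, adjusted p = 0.00251) were lower. So were the distal nephron genes *Pvalb* (-1.38, adjusted p = 0.00846), *Calb1* (-1.39, adjusted p = 0.0313) and *Aqp2* (-1.30, adjusted p = 0.0286), while the distal marker sum was 829 to 1470 TPM at day 1 and 568 to 762 TPM at day 5.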

How the results depend on the processing

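The count of 13 called genes stayed between 10 and 19 with other pseudocounts and scalings, stricter filters, robust eBayes, array weights or the adjusted p alone. With the filter applied to the 9 control and day 1 libraries alone, in which *Cdsn* and *Gm14288* were not tested, 10 genes were called, 6 of them higher. The count was 6 without a filter, 7 without the variance trend, 2 with only control and day 1 libraries and 38 with a podocyte score as covariate. With the tubular, the proximal or the distal score as covariate it was 0, 0 and 0. Leaving out 1 library gave 3 to 218. The replicate numbers label different mice, and deviations of same-numbered libraries correlated between -0.0563 and 0.0913, so they were not taken as pairs. A replicate block, in which control replicate 5 has no partner, gave 149 calls, and 8 genes associated with the tubular score instead of 465. That count was 101 to 474 when 1 library was left out, lowest without control replicate 5 and 214 without control replicate 2.

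The 5 called genes that differed between the days, a count whose alternatives were chosen after seeing the data, became 0, 1 and 0 with the tubular, proximal and distal score, and 1 to 5 when 1 library was left out, 1 without day 1 MN replicate 4 or day 5 MN replicate 1, 2 without day 5 MN replicate 2 and 3 without day 1 MN replicate 1. Among named genes, signs turned only with a tubular covariate. *Slc34a1* had log2 fold changes of -0.17, -0.0029 and -0.072 with the tubular, proximal and distal score, *Lrp2* -0.12 with the tubular score, *Umod* -0.12 with the distal score, *Aqp2* -0.063 and -0.25 with the tubular and distal score, and *1700016C15Rik* -0.36 and -0.20 with the tubular and proximal score. These scores are built from such genes. No called gene changed sign in the settings run. The cause of the other changes was not tested.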
